A study of Mus musculus with 12 samples.

Results

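The urea cycle and amino acid genes described here were 10 genes that liver expresses most strongly near the portal vein, chosen by symbol: Nags, Cps1, Slc25a15, Otc, Ass1, Asl and Arg1 of the urea cycle, and Gls2, Hal and Sds of amino acid breakdown. All 10 were found among the 57180 genes of the count tables, each under 1 identifier, and all 10 passed the filter on low counts that left 19350 tested genes. The 12 sequenced livers came from 2 genotype groups, named KO and Het, each of 3 female and 3 male mice. Every mouse was Csa-/- (Csa is listed as Ercc8), and all had been treated as newborns with AAV9-CSA, a vector that carries human CSA under the ubiquitous chicken beta-actin promoter. The KO group is made up of CX mice, which were sampled when they reached a humane endpoint. The Het group holds littermates of the same age with the genotype Csa-/- Xpa+/-. The series labels write Csa-/- Xpa+/+ for the KO group, but the study describes CX mice as also lacking Xpa, so the mice were grouped by the names KO and Het. No group of untreated mice or of mice with intact Csa was analysed here, and the age of single animals is not given in the labels.

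Gene counts summed to 30044812 to 43634073 per liver, and the correlation of log2 levels between livers of a group was at least 0.964. Xpa was at 3.10 to 6.34 CPM (counts per 1000000, after scaling of library sizes) in the 6 Het livers and at 0.992 to 1.83 CPM in the 6 KO livers (log2 fold change -1.83 ± 0.16 SE, adjusted p = 4.1e-05 by edgeR). Mouse Ercc8 was at 7.16 ± 1.40 CPM (SD, n = 6) in Het livers and 22.9 ± 8.81 CPM in KO livers (log2 fold change 1.62 ± 0.17 SE, adjusted p = 0.000156 by edgeR). Counts over the whole gene do not check its deletion, and reads of the human vector cannot be told apart from those of mouse Ercc8 here. Hepatocyte markers, Alb and Ttr among them, together made up 52550 to 123800 CPM, and lymphocyte markers at most 4.21 CPM. In whole liver, fewer cells of a type and less RNA per cell cannot be told apart.

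The urea cycle turns ammonia, which is toxic, into urea in the hepatocytes around the portal vein. NAGS makes the activator of CPS1, which forms carbamoyl phosphate from ammonia in mitochondria, and OTC joins it to ornithine, which the carrier SLC25A15 (ORNT1) brings in. The citrulline that results leaves for the cytosol, where ASS1 and ASL convert it to arginine, and ARG1 splits arginine into urea and ornithine. GLS2 (liver glutaminase), HAL (histidine ammonia-lyase) and SDS (serine dehydratase) release ammonia from glutamine, histidine and serine. Hepatocytes around the central vein use glutamine synthetase (Glul) to take up ammonia that has escaped the cycle. Position within the lobule is background here and was not measured. Fasting, protein intake, glucagon and glucocorticoids are known to raise most of these genes together.

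Otc is X-linked. Its promoter is shown because Otc alone of the 10 genes had a negative log2 fold change over both sexes. The window runs from 250 bases before to 50 bases after the start, on the plus strand at chrX:10252055-10252354 of GRCm38.p6 (RefSeq), an older build than the GRCm39 of the counts, and no part of it is in capitals because no searched motif matched.
Otc promoter: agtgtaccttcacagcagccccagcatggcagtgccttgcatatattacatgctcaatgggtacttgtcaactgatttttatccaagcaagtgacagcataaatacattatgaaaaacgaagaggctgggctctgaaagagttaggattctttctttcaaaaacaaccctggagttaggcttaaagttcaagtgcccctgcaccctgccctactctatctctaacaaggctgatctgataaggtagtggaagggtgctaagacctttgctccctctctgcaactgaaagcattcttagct
Both strands were searched for TGACGTCA (the cyclic AMP response element palindrome), for its shorter core TGACG, which lies within the palindrome, for TTGCGCAA (a C/EBP palindrome) and for TATAAA (letters of a common core promoter box). Over 32851 promoter windows of this length, 1.79%, 20.8%, 0.183% and 13.6% held each of these in turn. The GC content of the Otc window was 44.3%, against a median of 52.7% over all windows. Windows of 4 further members, Ass1, Hal, Nags and Slc25a15, were in the same table; the Hal window held TATAAA on the minus strand and the Nags window held the TGACG core on the minus strand. The windows of Cps1, Asl, Arg1, Gls2 and Sds were not in it.

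On GRCm39, Otc (ENSMUSG00000031173.14) spans 10118503 to 10187265 of chromosome X, Asl (ENSMUSG00000025533.16) spans 130040099 to 130058088 of chromosome 5, and Arg1 (ENSMUSG00000019987.10) spans 24791118 to 24803817 of chromosome 10. Cps1 (ENSMUSG00000025991.9) spans 67161988 to 67270418 of chromosome 1. These identifiers carry the version numbers of the count tables, which are older than those of the annotation that gave the spans. No annotated gene overlaps Otc, Ass1 or Hal. Each of the other 7 genes has an annotated gene on the opposite strand, and Gls2 also has one on its own strand. The estimated counts of Otc and Slc25a15 were whole numbers (to within 1e-06) in all 12 livers, whereas those of Ass1 were not whole in any, as happens where the quantification shares reads out between genes.

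Levels of different genes were compared as TPM (transcripts per 1000000, which corrects for transcript length). In Het livers Ass1 was highest at 933 ± 325 TPM (SD, n = 6), followed by Cps1 at 720 ± 129, Arg1 at 446 ± 105, Asl at 219 ± 88.6 and Sds at 144 ± 72.9 TPM. Otc at 113 ± 12.6, Gls2 at 107 ± 16, Hal at 106 ± 19.1 and Slc25a15 at 79.4 ± 25.5 TPM came next, and Nags was lowest at 18.5 ± 4.10 TPM. In KO livers the order of the upper 5 was the same, with Ass1 at 1135 ± 350, Cps1 at 968 ± 275, Arg1 at 691 ± 219, Asl at 445 ± 192 and Sds at 204 ± 78.9 TPM. Otc dropped in this order, to 60.25 ± 19.46 TPM, below Gls2 (114 ± 23.4), Hal (113 ± 30.5) and Slc25a15 (109 ± 58.8), and stayed above Nags (21.6 ± 8.07). In Het livers the ranges of all neighbours in this order overlapped, except those of Slc25a15 (51.4 to 120.4 TPM) and Nags (12.6 to 23.3 TPM). In KO livers Otc, at 24.5 to 76.4 TPM, lay below Hal (78.2 to 154.8 TPM) and Gls2 (86.4 to 153.8 TPM) in every liver, but overlapped Slc25a15 and Nags.

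In the comparison of KO with Het livers over both sexes, Otc was lower while Asl and Arg1 were higher, and the other 7 genes did not pass the test (adjusted p under 0.05 over all tested genes, edgeR). Thus 2 of 10 genes were called higher, against 12.2% of all tested genes, and 1 of 10 was called lower, against 10.2%. DESeq2 called 2 higher, against 13.9%, and 1 lower, against 12.2%. These shares are close to the background, so the counts alone do not set the group apart. Of the 10 log2 fold changes 9 were positive, against 10023 of all 19350 tested genes. Their median was 0.27, and the median over all tested genes was 0.02. Otc was also the 1 gene of the 10 whose 6 KO livers were all below the 6 Het livers, a pattern found in 4.64% of tested genes. None of the 10 had all KO livers above all Het livers, against 4.72%.

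**Figure D1:**
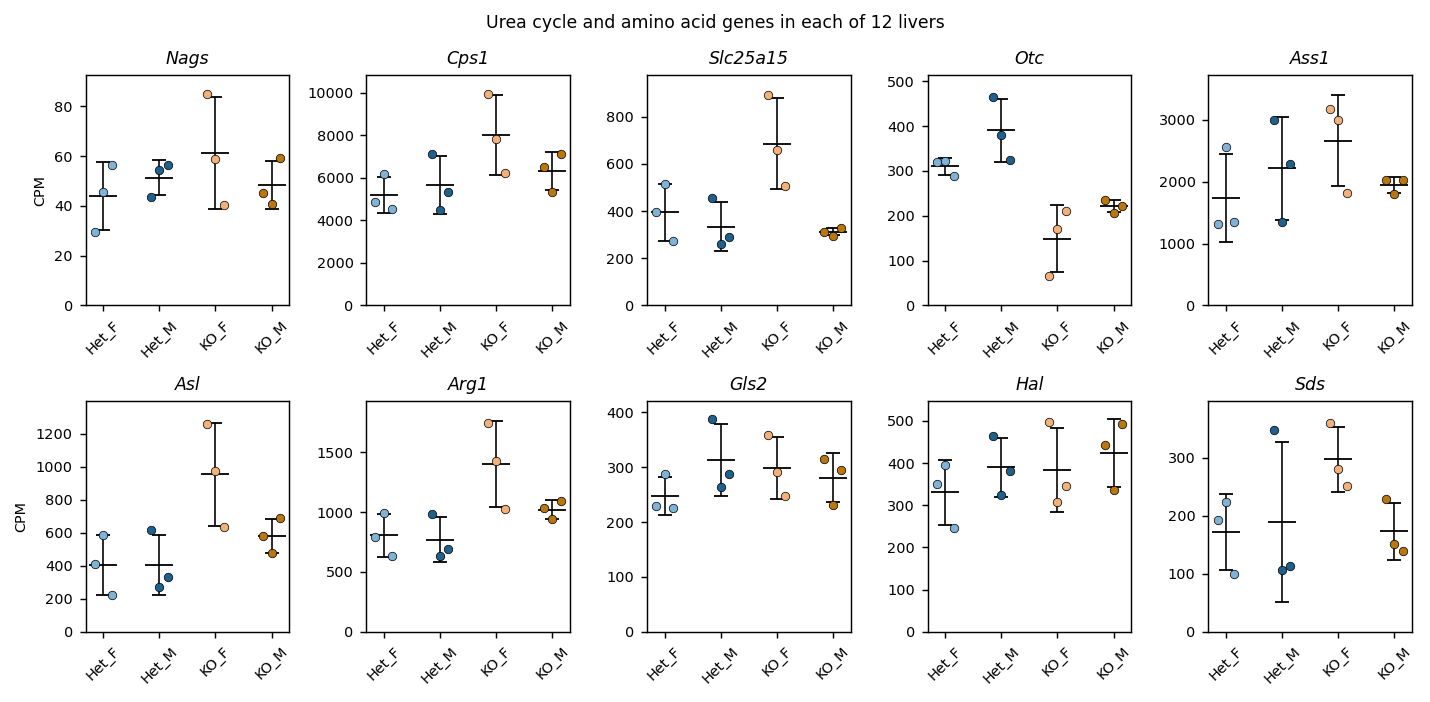
Level in CPM (vertical axes, each from 0) of the 10 genes in each liver (points) of the 4 groups, with the mean and SD of each group (bars, n = 3). Otc is the only panel in which every KO liver lies below every Het liver, and KO_F_108 is its lowest point at 66.3 CPM and the highest KO point for Cps1, Asl and Arg1.

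**Figure D2:**
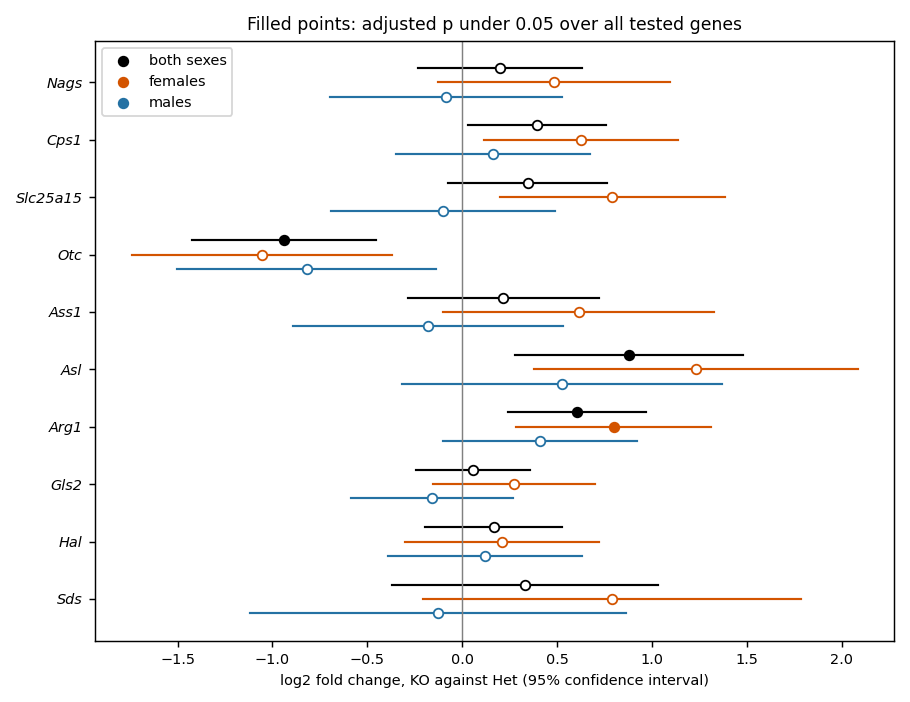
Log2 fold change of KO against Het (horizontal axis) with its 95% confidence interval for the 10 genes over both sexes, in females and in males, by edgeR. Filled points passed an adjusted p of 0.05, which were Otc, Asl and Arg1 over both sexes and Arg1 in females.

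Nags, which makes N-acetylglutamate, the activator of CPS1, was at 29.4 to 56.5 CPM in Het livers (median 49.98) and 40.2 to 84.8 CPM in KO livers (median 52.1). Its log2 fold change was 0.20 (95% confidence interval -0.23 to 0.63, adjusted p = 0.507), and the genotypes overlapped widely.

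Cps1, the entry enzyme of the cycle, had the most reads of the 10 genes. It was at 4879, 6171 and 4535 CPM in Het females and 7152, 4475 and 5347 CPM in Het males. KO females had 9970, 7853 and 6227 CPM and KO males 6519, 5354 and 7126 CPM. The livers are named by genotype, sex (F or M) and mouse number. All KO females were above all Het females, whereas the males overlapped, with Het_M_119 above every KO male. The share of all tested genes that separate in this way within a sex was not computed. Over both sexes the log2 fold change of Cps1 was 0.39 ± 0.17 (SE), which did not pass the test (adjusted p = 0.108 by edgeR) and did not pass it under any of 26 alternatives.

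Slc25a15, the mitochondrial ornithine carrier, was at 397, 516 and 275 CPM in Het females and 455, 260 and 290 CPM in Het males. It was at 891, 658 and 507 CPM in KO females and 312, 297 and 327 CPM in KO males. Of KO livers the 3 females were thus all above the 3 males, and KO males lay within the range of Het males. The share of all tested genes whose KO livers separate by sex was not computed. Its log2 fold change over both sexes was 0.34 ± 0.19 (SE, adjusted p = 0.218 by edgeR).

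Otc, which forms citrulline from ornithine and carbamoyl phosphate, was at 320, 322 and 289 CPM in Het females and 466, 380 and 325 CPM in Het males. KO females had 66.3, 171 and 210 CPM and KO males 234, 207 and 222 CPM. Every KO liver was therefore below every Het liver over both sexes. The same separation within each sex follows from this and is no further result. The mean fell from 350 ± 63.8 CPM (SD, n = 6) to 185 ± 62.0 CPM (SD, n = 6), with a log2 fold change of -0.94 ± 0.22 (SE, 95% confidence interval -1.42 to -0.45, adjusted p = 0.0120 by edgeR), or 0.522 of the Het level. The call held under all 26 alternatives, with log2 fold changes of -1.11 to -0.77. Without KO_F_108, the lowest liver, the log2 fold change was -0.77 (adjusted p = 0.00122).

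KO_F_108 also had fewer reads of short transcripts than the other livers. Genes with transcripts of at most 800 bases (305 genes) lay at a median of -0.22 on the log2 scale from their mean over the 12 livers in this mouse, and those of over 2000 and up to 3000 bases, the class of Otc, at 0.01. Otc itself lay at -1.88 in this liver. The part of transcript length in the Otc value was not tested.

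Ass1, which joins citrulline to aspartate, was at 1322 to 3002 CPM in Het livers (median 1821) and 1805 to 3181 CPM in KO livers (median 2029). The genotypes overlapped, and the log2 fold change of 0.22 (95% confidence interval -0.29 to 0.72, adjusted p = 0.535) did not pass the test.

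Asl, which releases arginine from argininosuccinate, was at 413, 584 and 222 CPM in Het females and 614, 269 and 331 CPM in Het males. KO females had 1258, 973 and 634 CPM and KO males 579, 480 and 686 CPM. All KO females exceeded all Het females, again without a share of all tested genes to set beside it, while Het_M_119 lay above 2 of the 3 KO males. The log2 fold change of Asl was 0.88 ± 0.27 (SE, 95% confidence interval 0.28 to 1.48, adjusted p = 0.0395 by edgeR), a 1.84-fold rise. The call was lost without a filter on low counts (adjusted p = 0.106), and without any 1 of 8 livers (Het_F_111, Het_F_126, Het_M_125, Het_M_137, KO_F_108, KO_F_112, KO_M_118, KO_M_136), with log2 fold changes of 0.72 to 0.87 and adjusted p of 0.0658 to 0.0990.

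Arg1, which yields urea, was at 792, 990 and 633 CPM in Het females and 983, 632 and 691 CPM in Het males. It was at 1746, 1429 and 1028 CPM in KO females and 1033, 939 and 1091 CPM in KO males. The only KO liver within the Het range was KO_M_122, at 939 CPM. The log2 fold change of Arg1 was 0.60 ± 0.17 (SE, 95% confidence interval 0.24 to 0.97, adjusted p = 0.0228 by edgeR), a 1.52-fold rise. Leaving out Het_F_111, Het_F_126, Het_M_125, Het_M_137, KO_M_118 or KO_M_136 brought the adjusted p to between 0.0511 and 0.0621, with log2 fold changes of 0.52 to 0.59.

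Gls2, the periportal glutaminase, was at 225 to 388 CPM in Het livers and 231 to 359 CPM in KO livers, with a log2 fold change of 0.06 (95% confidence interval -0.24 to 0.36, adjusted p = 0.802). Hal was at 247 to 464 CPM in Het and 308 to 497 CPM in KO livers, with a log2 fold change of 0.17 (95% confidence interval -0.20 to 0.53, adjusted p = 0.509). Sds was at 99.3 to 348 CPM in Het and 139 to 360 CPM in KO livers, with a log2 fold change of 0.33 (95% confidence interval -0.37 to 1.03, adjusted p = 0.489). The ammonia-releasing genes thus overlapped between genotypes. For Sds the highest Het liver was Het_M_119 at 348 CPM, far above the other 2 Het males at 106 and 114 CPM, and without it the log2 fold change of Sds was 0.71 (adjusted p = 0.0448).

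The 2 sexes were then compared. In females 1 of 10 genes was called higher, Arg1 (log2 fold change 0.80 ± 0.24 SE, adjusted p = 0.0491 by edgeR), against 5.94% of tested genes, and none was called lower, against 5.1%. In females 5 of the 10 had an unadjusted p under 0.05, which were Arg1, Otc (adjusted p = 0.0510), Asl (0.0635), Slc25a15 (0.0794) and Cps1 (0.103). Of all 19350 tested genes, 5608 had such an unadjusted p in females. DESeq2 called 3 of the 10 higher and 1 lower, against 8.53% and 7.73% of the genes it tested. The Arg1 call in females was lost when any 1 of 10 livers was left out (all but Het_M_119 and KO_F_123), with adjusted p of 0.0509 to 0.172. Otc passed without KO_F_108 or KO_F_123, and Asl passed without Het_M_119 or KO_F_123.

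In males no gene of the 10 was called by edgeR or by DESeq2. Of tested genes, 4.47% were called higher and 2.98% lower by edgeR, and 6.49% and 5.13% by DESeq2. Among the 10, 1 gene, Otc, had an unadjusted p under 0.05 (log2 fold change -0.82 ± 0.31 SE, adjusted p = 0.138 by edgeR). Of all 19350 tested genes, 4658 had such an unadjusted p in males. Without KO_F_108, which enters the shared estimate of spread, Otc was called in males (log2 fold change -0.83, adjusted p = 0.00682), and it was called in a fit of the males alone (adjusted p = 0.0159). The median log2 fold change of the 10 genes was 0.62 in females and -0.09 in males. The medians over all tested genes were 0.01 in females and 0.02 in males. Of the 10 log2 fold changes 1 was negative in females and 6 in males, against 9592 and 9344 of all 19350 tested genes.

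For 9 of the 10 genes the genotype effect on the log2 scale was lower in males than in females, against 9371 of all 19350 tested genes. The 10 genes share livers and most vary together, so these are not 9 separate results. None of these differences was called by edgeR or by DESeq2 (0.0465% and 0.975% of tested genes were called). The nearest to a call was Slc25a15, at 0.79 in females and -0.10 in males on the log2 scale (difference -0.89 ± 0.38 SE, adjusted p = 0.512 by edgeR). It was the 1 gene of the 10 with an unadjusted p under 0.05, against 1795 of all 19350 tested genes. For Otc the difference was 0.24 (95% confidence interval -0.72 to 1.197), which spans both signs, so neither a like nor an unlike effect in the sexes was shown.

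Between males and females over both genotypes, none of the 10 was called by edgeR, against 1.02% of tested genes. Slc25a15 was lower in males at an unadjusted p under 0.05 (log2 fold change -0.69 ± 0.19 SE, adjusted p = 0.134 by edgeR), against 2678 of all 19350 tested genes. DESeq2 called 1 of the 10, against 4.14%. Within Het livers none was called by edgeR or DESeq2, against 0.92% and 3.39%, and none had an unadjusted p under 0.05, against 2129 of 19350. Within KO livers none was called by edgeR, against 0.0517%. There 1 gene of the 10 had an unadjusted p under 0.05, against 2445 of 19350, again Slc25a15 (log2 fold change -1.14 ± 0.27 SE, adjusted p = 0.172 by edgeR). DESeq2 called 1 of the 10 within KO livers, against 2.05% of tested genes, and edgeR also called 1 when KO_F_123 was left out, against 1.48%.

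Setting each gene against Cps1 in the same liver removes any effect of library scaling, but the ratio also moves with Cps1 itself, whose log2 fold change was 0.39 and which was highest in KO_F_108 at 9970 CPM. Per 1000 Cps1 reads there were 52.1 to 84.9 Otc reads in Het livers (median 64.4) and 6.65 to 38.7 in KO livers (median 32.4). The genotypes did not overlap in this ratio, and KO_F_108 was lowest at 6.65. The share of all tested genes that separate in this ratio was not computed. For Asl this ratio ran from 49.0 to 94.6 in Het livers and from 88.8 to 126.2 in KO livers, and for Arg1 from 129 to 162 in Het livers and from 153 to 182 in KO livers. For Gls2 it ran from 46.5 to 58.8 in Het livers and from 36.0 to 48.5 in KO livers, although Gls2 itself had a log2 fold change of 0.06. These 3 ratios overlapped at their edges.

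**Figure D3:**
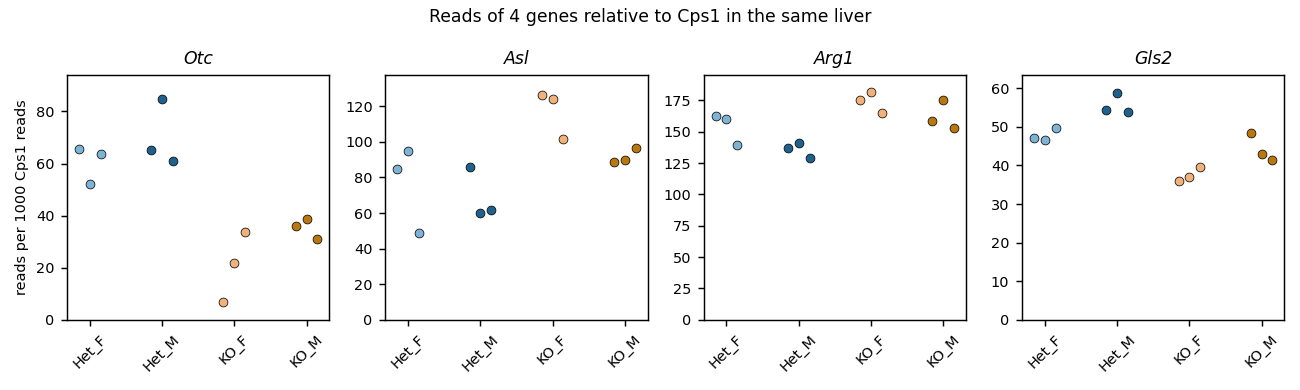
Reads of Otc, Asl, Arg1 and Gls2 per 1000 reads of Cps1 in the same liver (vertical axes, each from 0), with a point for each of the 3 mice of a group. Otc lies at 52.1 or more in Het and at 38.7 or less in KO livers, whereas the ranges of the other genes meet.

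Most of the genes other than Otc varied together from liver to liver. Over 12 livers the 36 pairs among the other 9 genes all had positive correlations of log2 CPM (median Pearson r 0.69, highest 0.985 for Asl with Arg1), and Otc was negatively correlated with all 9 (-0.78 with Arg1 to -0.19 with Gls2, median -0.59). After each group's own mean was subtracted, 35 of the 36 pairs stayed positive (median 0.83), and 8 of the 9 pairs with Otc stayed negative (median -0.30). Nags was the loosest of the 9, at 0.01 with Sds over 12 livers, and within groups it ran from -0.29 with Sds to 0.37 with Cps1. These values describe 12 shared libraries and the genes are not independent, so no p is given. KO_F_108 had the lowest Otc level of all 12 livers and the highest level of Cps1, Slc25a15, Ass1, Asl, Arg1, Nags, Hal and Sds. Without this liver 7 of the 9 pairs with Otc were negative over the other 11 livers (median -0.15), and within groups 1 was negative and the median turned to 0.46, so the opposite course of Otc within groups rested on KO_F_108. Of the 36 pairs without Otc 4 were then negative (median 0.60).

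**Figure D4:**
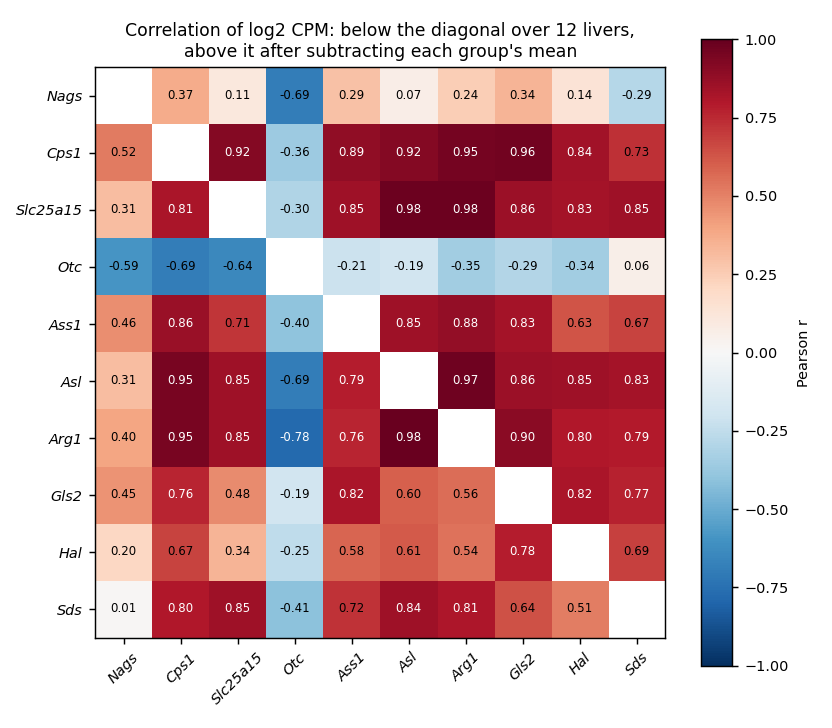
Pearson correlation of log2 CPM for each pair of the 10 genes (colour and number), below the diagonal over 12 livers and above it after subtraction of the mean of each group. The row and column of Otc are blue (negative) but for its pair with Sds within groups at 0.06, while the block of Cps1, Asl, Arg1 and Slc25a15 is at 0.81 or more.

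Among 13418 genes with a mean of at least 1 CPM, those whose log2 CPM followed Cps1 most closely over 12 livers were Gpt2, a mitochondrial alanine aminotransferase, Arg1 and Asl, each at r = 0.951. Gpt2 was at 268 to 612 CPM in Het and 427 to 1446 CPM in KO livers (log2 fold change 0.68, adjusted p = 0.0688 by edgeR). Otc, the member with the largest absolute fold change, was followed most closely by C8g (a complement component, r = 0.986) and by Atp5me (0.982) and Atp5f1e (0.977), small subunits of ATP synthase. In KO_F_108 Otc, C8g, Atp5me and Atp5f1e lay at -1.88, -1.87, -0.93 and -0.56 on the log2 scale from their means over the 12 livers, and without this liver the correlations with Otc were 0.957, 0.950 and 0.963. All 3 were lower in KO livers, C8g by a log2 fold change of -0.98 (adjusted p = 0.00550 by edgeR), Atp5me of -0.50 (0.0162) and Atp5f1e of -0.36 (0.0136). They were chosen for following Otc over all 12 livers, genotype included, so this direction comes with the choice and is no separate result. Their reference transcripts were 875, 355 and 427 bases long (medians), shorter than the 2362 bases of Otc.

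The list of partners of the cycle held calls in both directions. Of 22 tested genes for partner enzymes, carriers and nitrogen entry, 5 were called higher and 5 lower (median log2 fold change -0.07), against 12.2% and 10.2% of all tested genes. Without any 1 liver other than Het_F_115, KO_F_108, KO_F_112 or KO_F_123, between 1 and 3 were called lower, while 7.82% to 10.8% of all tested genes were called lower with a mouse left out. Slc25a13, the aspartate-glutamate carrier that feeds ASS1, fell from 229 ± 26.8 to 158 ± 38.9 CPM (SD, n = 6; log2 fold change -0.54 ± 0.16 SE, adjusted p = 0.0324 by edgeR). Slc25a2, a paralog of Slc25a15 found at very low level here, was at 0.267 to 0.564 CPM in Het and 0.0620 to 0.310 CPM in KO livers (log2 fold change -0.84, adjusted p = 0.0402). Arg2, the mitochondrial arginase, rose in the same direction as Arg1 but from 0.0648 to 0.332 CPM to 0.290 to 1.11 CPM (log2 fold change 1.83, adjusted p = 0.00225), a level far below that of Arg1.

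Glul, glutamine synthetase of the central zone, fell from 958 ± 251 to 513 ± 197 CPM (SD, n = 6; log2 fold change -0.88 ± 0.27 SE, adjusted p = 0.0404 by edgeR), and its lowest liver was KO_F_108 at 188 CPM, the liver with the lowest Otc. Rhbg, an ammonium transporter of the same zone, rose (log2 fold change 1.33, adjusted p = 0.00145). Gpt, the cytosolic alanine aminotransferase, rose (0.65, adjusted p = 0.00478), and Oat, which makes glutamate semialdehyde from ornithine, and the glycerol and urea channel Aqp9 fell over both sexes (-0.63, adjusted p = 0.0101, and -0.39, adjusted p = 0.0366). Oat was at 803 to 1107 CPM in Het and 388 to 511 CPM in KO males, but overlapped in females (749 to 1017 and 625 to 928 CPM). Aqp9 was at 339 to 500 CPM in Het and 241 to 298 CPM in KO females, but overlapped in males (382 to 404 and 307 to 429 CPM). Neither difference between the sexes was called, and the share of all tested genes that separate in a single sex was not computed. The calls of Slc25a13, Slc25a2, Glul and Aqp9 were lost without any 1 of 5, 9, 9 and 9 livers, with adjusted p of 0.0519 to 0.0838.

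Of 18 tested genes for breakdown of histidine, serine, threonine and glycine, 2 were called higher and 1 lower (median -0.07), against 12.2% and 10.2% of all tested genes, so neither count stands above the background. Hdc, which makes histamine from histidine (log2 fold change 0.83, adjusted p = 0.0277), and Sdsl, a relative of Sds (1.07, adjusted p = 0.0329), rose, and Grhpr, which reduces glyoxylate, fell (-0.56, adjusted p = 0.00778). Without any 1 of 4 livers Hdc, and of 8 livers Sdsl, did not pass. Between 0 and 1 were called higher without any 1 liver other than Het_F_115, KO_F_123 or KO_M_122, and 2 to 4 lower without Het_F_111, KO_F_112 or KO_F_123. Of 36 tested genes for breakdown of other amino acids, 6 were called higher and 8 lower (median -0.13), against the same 12.2% and 10.2%, and 3 to 5 lower without any 1 Het liver or KO male. Mat1a (1.195, adjusted p = 0.00154) and Cth (1.26, adjusted p = 0.00481), both of methionine breakdown, and Asrgl1 (0.86, adjusted p = 0.00112) rose, and Csad, which makes hypotaurine (-2.34, adjusted p = 0.00378), Hibadh of valine breakdown (-0.66, adjusted p = 0.00176) and Hpd of tyrosine breakdown (-0.51, adjusted p = 0.0154) fell.

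**Figure D5:**
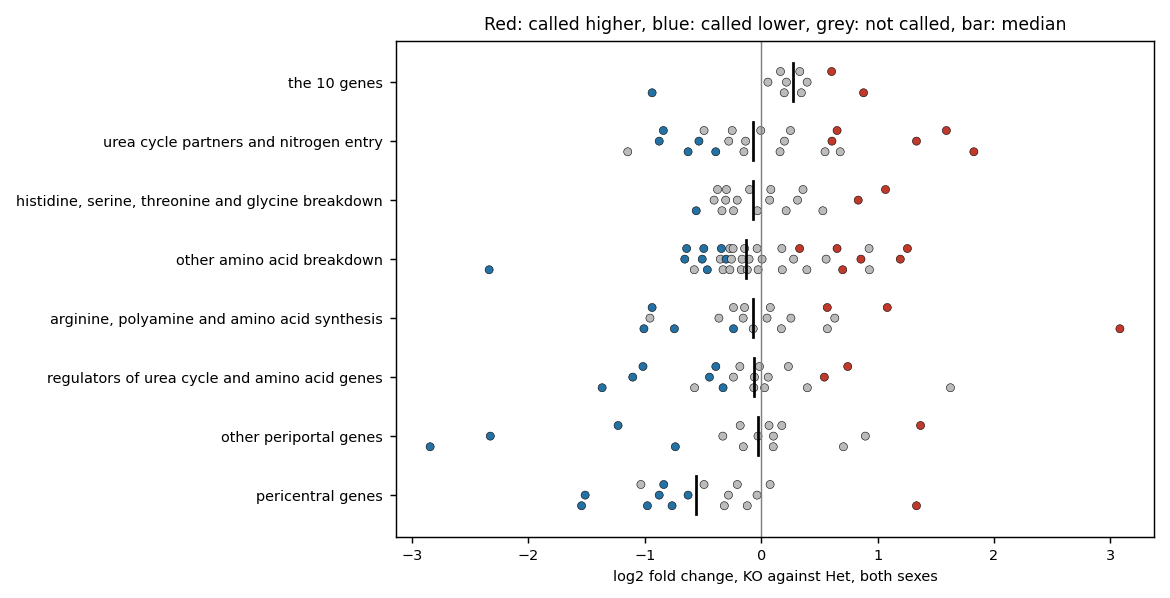
Log2 fold change of KO against Het over both sexes (horizontal axis) for each tested gene of the 10 urea cycle and amino acid genes and of 7 further lists, with the median of each list (bar) and calls by edgeR in colour. The median of the 10 genes is 0.27 and that of the pericentral genes is -0.56, with the other lists between -0.13 and -0.03.

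Of 19 tested genes that use or supply arginine, polyamines and amino acids, 3 were called higher and 4 lower (median -0.07), against 12.2% and 10.2% of all tested genes. Asns, asparagine synthetase, rose most, from 0.0765 to 13.2 CPM in Het to 7.64 to 46.1 CPM in KO livers (log2 fold change 3.08 ± 0.51 SE, adjusted p = 0.00314 by edgeR), and Psat1 of serine synthesis and Sat1 of polyamine breakdown also rose (1.08 and 0.57). Gatm, which takes arginine to creatine (-0.94, adjusted p = 0.0186), Ddah1 (-1.01, adjusted p = 0.00462) and Amd1 (-0.75, adjusted p = 0.00120) fell.

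Of 19 tested regulators of urea cycle and amino acid genes, 2 were called higher and 6 lower (median -0.06), against 12.2% and 10.2% of all tested genes, and 1 higher without any 1 liver other than Het_F_111, Het_M_119, KO_F_123 or KO_M_136. Cebpa, a C/EBP factor known to drive urea cycle genes in liver, fell from 255 ± 75.1 to 118.2 ± 34.69 CPM (SD, n = 6; log2 fold change -1.10 ± 0.15 SE, adjusted p = 0.000586 by edgeR). Ppara (-1.37, adjusted p = 0.00207) and Creb3l3 (-1.02, adjusted p = 0.00460), factors of the fasting response, fell too. Crtc2, a coactivator of CREB (0.74, adjusted p = 0.00940), and Atf4, the factor of the amino acid response (0.54, adjusted p = 0.0339), rose, and Atf4 did not pass without any 1 of 9 livers (adjusted p up to 0.0803).

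Of 15 other periportal genes, 1 was called higher, Apoa4 (log2 fold change 1.37, adjusted p = 0.0279), and 4 lower, among them Hsd17b6 (-2.85, adjusted p = 0.00343), Sult5a1 (-2.33, adjusted p = 0.00251) and Fbp1 of gluconeogenesis (-0.74, adjusted p = 0.00389). The median of that list was -0.03, the shares of all tested genes were 12.2% higher and 10.2% lower, and Apoa4 did not pass without any 1 of 8 livers (adjusted p up to 0.0642). Of 16 pericentral genes 1 was called higher, Rhbg, and 7 lower (median -0.56), against the same shares, among them Cyp2e1 (-0.77, adjusted p = 0.00745) and Oat, and 4 were called lower without Het_F_126, KO_M_118 or KO_M_122. Glul, Oat, Rhbg and Slc1a2 are also in the list of partners. The summed level of the pericentral genes was 9338 to 12730 CPM in Het and 4826 to 7743 CPM in KO livers, with no overlap and with KO_F_108 lowest. Cyp2e1 alone made up 41.2% to 56.8% of this sum, and without it the sums were 4502 to 5995 CPM in Het and 2362 to 4005 CPM in KO livers, which again did not overlap. The summed level of the 10 urea cycle and amino acid genes was 7923 to 13920 CPM in Het and 9840 to 18410 CPM in KO livers, which overlapped.

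Markers of other cells were read against the same shares of all tested genes, 12.2% called higher and 10.2% lower. Of 8 Kupffer cell and macrophage markers 4 were called higher and none lower, with summed levels of 121 to 319 CPM in Het and 166 to 511 CPM in KO livers, which overlapped. Of 6 markers of sinusoidal endothelium 3, and of 7 markers of stellate cells and fibroblasts 2, were called lower, with sums of 162 to 299 and 247 to 451 CPM in Het and 118.3 to 206.4 and 124.7 to 269.3 CPM in KO livers, which overlapped for both. Of 7 tested hepatocyte markers 1 was called higher and 2 lower, with sums of 52550 to 75960 CPM in Het and 71030 to 123800 CPM in KO livers. Cyp2e1, called lower, is in this list as well as in the pericentral list, so the lists are not separate. Of 3 tested neutrophil markers 1 was called higher, with sums of 0.390 to 2.93 CPM in Het and 1.48 to 3.22 CPM in KO livers. None of 6 cholangiocyte and 7 lymphocyte markers was called (no unadjusted p under 0.05). The part of these cells in the values of the 10 genes was not tested.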

How the data were processed

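Stranded paired reads of ribosome-depleted total RNA were obtained from 12 livers. The authors aligned the reads with STAR 2.7.9a to GRCm39 and quantified GENCODE genes with Salmon 1.10.1 (versions from the submitters' processing notes); how strand was set in counting is not given in the sources used here. The deposited estimated counts per gene were rounded (12% of the values were not whole to within 1e-06) and used for every main result. The deposited TPM values, which keep no depth, were used for levels between genes and as alternatives, as were 2 further tables of deposited estimated counts rebuilt from TPM.

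Genes that reached 5 reads in at least 3 livers, with libraries scaled to the median, were tested with edgeR 4.0.16 (R 4.3.3), with TMM scaling and the robust quasi-likelihood F test (prior count 2), on a model with a mean per group, as in the study. Adjusted p is by the Benjamini-Hochberg method over all tested genes, and genes under 0.05 were called. The effect over both sexes is the mean of the effects in females and males. DESeq2 1.42.0 and limma 3.58.1 served as alternatives.

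The 10 genes and all lists were chosen with earlier results of these data known. Named genes are the 10, Xpa, Ercc8, Glul, Arg2, Slc25a13, Slc25a2, the 3 called genes of smallest p in each direction of each of 7 lists, and the 3 genes most correlated with Cps1 and with the member of largest absolute fold change (mean of at least 1 CPM); genes of the lists called for the difference between the sexes' effects would also have been named, and there were none. Some genes that this rule names are not reported here. Positions, lengths and overlaps come from GENCODE M39 on GRCm39. Mice are replicates, so p-values set the difference between groups against the spread between mice. In the main fit that spread was estimated over the groups together. Intervals cover that spread only.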

Additional observations from a re-analysis of the deposited data

Results flagged for a closer look

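The Otc level of KO_F_108, at 66.3 CPM, stood apart from the other 5 KO livers, the nearest of which was at 171 CPM. Its gap to that liver was 0.626 of the range of the 6 KO livers, just over the 95% critical value of Dixon's test for 6 values. This was 1 of 20 sets tested (10 genes in 2 genotypes of 6 livers), and chance alone gives a gap of this kind in about 1 of 20 sets.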

How the results depend on the processing

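For the 10 genes, 364 of 416 recomputed fold changes kept their direction and their side of the threshold, 36 lost a call (24 of them with a mouse left out), 14 gained one and 2 changed sign. The latter were both of Gls2, at -0.0068 without Het_M_125 and -0.031 without KO_F_108, the lowest of values that reached 0.139 with a mouse left out. The fall of Otc over both sexes kept its call throughout, but not at an adjusted p under 0.01. That threshold left 0 of the 10 genes called over both sexes, against 5.16% of all tested genes higher and 4.03% lower. Without a filter on low counts 1 gene was called higher over both sexes, against 6.33% of all tested genes. With 1 mouse left out between 0 and 3 were. In females 1 gene was called lower by counts without rounding, upper quartile scaling, library size only, DESeq2, limma on log2(TPM + 1) and log2(TPM + 0.1) and an adjusted p under 0.1, and 0 or 1 with a mouse left out. The count called higher in females was 3 by DESeq2 and at an adjusted p under 0.1, and 0 to 3 with a mouse left out. It was 0 by counts without rounding, length-scaled or scaled counts, no filter, relative log expression, the older quasi-likelihood method, females alone, library size only, no robust estimation, both limma settings and an adjusted p under 0.01. Under the alternatives that left out no single mouse, 1.14% to 10.4% of tested genes were called higher in females and 0.693% to 9.33% lower. In males 1 gene was called lower in males alone, against 4.32% of the genes tested there. With a mouse left out 0 or 1 was, against 1.03% to 4.54%. DESeq2 called 1 gene between the sexes over both genotypes, against 4.14% of tested genes, and 1 within KO, against 2.05%. Leaving out a mouse gave 0 or 1 within KO by edgeR, against 0.0312% to 1.48%. The median over all genes moved by less than 0.1 (log2) under every scaling. Counts for the 7 lists and other named genes, added after seeing the data, moved most for pericentral genes called lower (1 to 8 over the alternatives, 7 as reported) and other amino acid breakdown called lower (2 to 12, 8 as reported). With a mouse left out, 8.81% to 11.5% of all tested genes were called higher and 7.82% to 10.8% lower over both sexes, and 2.44% to 7.32% and 1.95% to 6.84% in females. No paired analysis was possible because the labels record no litter and no mouse number is shared between groups.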
